A study of Mus musculus with 36 samples.

Results

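The genes described here are the nuclear genes of the mitochondrial respiratory chain and of ATP synthase, followed across embryonic and stem cell-derived progenitors of the mouse kidney. Members were the protein-coding genes whose symbols start with Nduf, Uqcr, Atp5 or one of Cox4 to Cox8, together with Sdha, Sdhb, Sdhc and Sdhd. The rule used symbols only and no measured value. It found 89 genes among the 22761 genes of the table, of which 16394 were protein-coding. Complex I held 45 of them, complex II 4, complex III 8, complex IV 15 and complex V 17. Of the 89, 78 encode subunits and 11 encode assembly factors or associated proteins.

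Messenger RNA had been sequenced from 36 libraries in 9 groups of 4. Of these, 6 groups were sorted ex-fetu from kidneys of CD1 mice at E11.5 or E12.5 and held ureteric bud cells (E11.5_UB and E12.5_UB), stromal progenitors (E11.5_SP and E12.5_SP) or nephron progenitors (E11.5_NP and E12.5_NP). The other groups were made in culture from mouse embryonic stem (ES) cells: iNP and iSP came from the line E14 mESC, and the engineered ureteric bud, eUB, came from a line labelled Sox9-mCherry-mESC. The courses of factors in culture differed as well, and eUB received GDNF and Matrigel, which iNP and iSP did not. Nephron and stromal progenitors of both origins were sorted by the same ITGA8 and PDGFRA gates after removal of cells positive for CD31, EpCAM or RET. Ureteric bud cells were sorted by RET and EpCAM, but eUB cells by EpCAM and the mCherry reporter. The study asked how closely the ES-derived progenitors match those of the embryo. An ex-fetu library pooled the kidneys of all embryos of one pregnant mouse, and an ES-derived library pooled embryoid bodies of one differentiation, so no value belongs to a single embryo. Every ES-derived group differs from its embryonic counterpart in strain and in culture as well as in origin, and eUB also in the sort, and these cannot be told apart. For both ureteric bud groups the title and the source field of the labels give opposite ages, and the titles were followed.

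Electrons from NADH enter the respiratory chain at complex I and those from succinate at complex II. Complex III passes them through cytochrome c to complex IV, which reduces oxygen, and complex V uses the proton gradient built on the way to make ATP. Most subunits are encoded in the nucleus and a small core in the mitochondrial genome. Some nuclear subunits exist as alternative isoforms, of which Ndufa4l2 and Cox4i2 are known to be raised when oxygen is low, while Cox6a2 and Cox7a1 are known from heart and skeletal muscle. The developing nephron progenitor niche is known for high glycolysis, with a growing use of oxidative metabolism as its cells differentiate.

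Values are normalised CPM, the reads of a gene relative to the size of its library after scaling between libraries. Differences are log2 fold changes of normalised CPM + 1, tested with limma and called at a Benjamini-Hochberg adjusted p under 0.05 over all genes. Libraries held between 13.0 and 52.5 M reads on genes. Defining markers stood highest in the group they name: 7 ureteric bud markers, Ret, Wnt11 and Calb1 among them, summed to between 1839 and 3211 normalised CPM in the UB and eUB libraries and to at most 287.6 elsewhere. The nephron progenitor list of 6 genes summed to between 359.1 and 594.5 in iNP against 1072 to 1225 in E11.5_NP. One E12.5_UB library, replicate 1, stood apart by its markers: its stromal list summed to 565.7 against 187.4 to 204.1 in the other E12.5_UB libraries, its nephron progenitor list to 299.6 against 29.1 to 39.3, its endothelial list to 89.4 against 2.94 to 5.30, its skeletal muscle list to 37.6 against at most 3.03 and its pluripotent list to 22.2 against 0.0473 to 0.145. Its ureteric bud list summed to 1839 against 2801 to 2898. A further 4 libraries stood apart in the members themselves, namely eUB replicate 1, iNP replicate 2, E11.5_SP replicate 4 and E12.5_NP replicate 2. In each of them the members lay on average 0.30 to 0.47 above their group on the log2 scale. In the same libraries short genes (at most 2555 exonic bases) lay 0.32 to 0.72 further above the group mean than long genes (at least 7711 bases), and genes of ribosomal proteins lay 0.33 to 0.53 above it. The members are short, with a median exonic length of 1718 bases against 4520 for other genes. Whether RNA quality or another property of these libraries set the members' values was not tested, and the counts of members called are given with and without them. Where a count without 1 library stands alone, the share of all genes in that fit is not set beside it. Such a count shows only how far the number of calls moves.

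**Figure D1:**
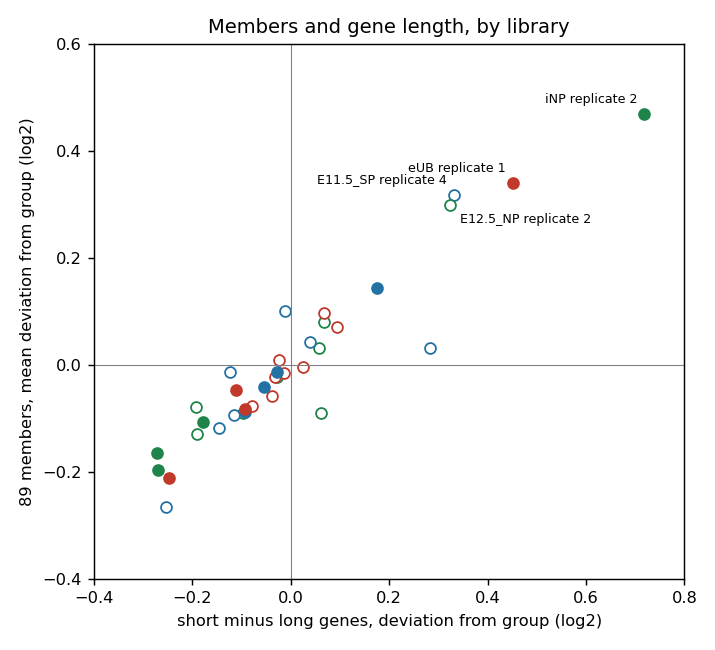
Mean deviation of the member genes from their group (log2 scale, vertical axis) against the deviation of short minus long genes (log2 scale, horizontal axis), 1 point per library. Red marks UB, blue SP and green NP, with filled points for ES-derived and open points for embryonic libraries. The 4 labelled libraries, iNP replicate 2, eUB replicate 1, E11.5_SP replicate 4 and E12.5_NP replicate 2, lie at the upper right, with members 0.30 to 0.47 above their group.

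Together the members took about 1% of the reads, and complex V took the largest part of it in every group. In E11.5_UB the members took between 0.883% and 0.969% of reads, of which complex V took 0.397% to 0.424% and complex I 0.226% to 0.254%. In eUB, 3 of the 4 libraries lay below that range, at 0.726%, 0.779% and 0.794%, while eUB replicate 1 reached 1.09%. In iSP the share ran from 1.04% to 1.22%, and in E11.5_SP from 0.716% to 0.896% with replicate 4 at 1.05%. In iNP it ran from 1.07% to 1.16% with replicate 2 at 1.62%, and in E11.5_NP from 0.900% to 1.03%. Both mesenchymal ES-derived groups lay above their E11.5 counterparts, apart from E11.5_SP replicate 4, which fell within the iSP range. Most eUB libraries lay below theirs. Fewer reads of a gene in a bulk library can come from fewer cells of a type or from less RNA per cell, which cannot be told apart.

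**Figure D2:**
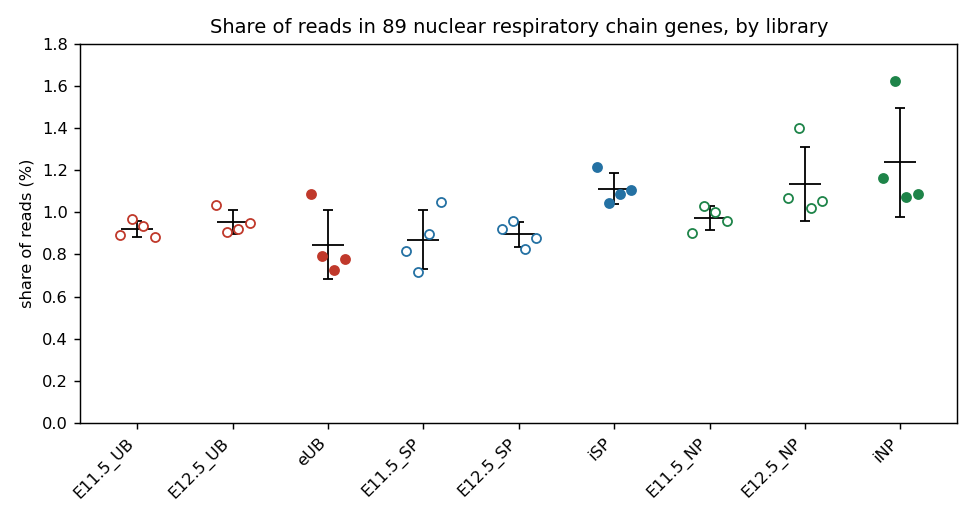
Percent of library reads taken by the 89 member genes, by group, 1 point per library with bars at the mean ± SD (n = 4 libraries per group). Red marks UB, blue SP and green NP, with filled points for ES-derived and open points for embryonic libraries. Values run from 0.716% in an E11.5_SP library to 1.62% in iNP replicate 2, and 3 of the 4 eUB libraries lie below all E11.5_UB libraries.

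In eUB, 28 of 87 tested members differed from E11.5_UB, 10 higher and 18 lower, beside 60.5% of all 13956 genes tested (32.1% higher and 28.5% lower). The median member was 0.12 lower on the log2 scale, where the median of all genes was 0.02 higher. Without eUB replicate 1 the count rose to 60 of 85, 8 higher and 52 lower, beside 70.7% of all genes, with a median of −0.26. Macrophage markers, a list of 6 genes, summed to 51.8 to 90.4 in E11.5_UB and to 0.223 to 0.558 in eUB. Other lists without overlap were the erythroid (4.94 to 39.8 in E11.5_UB and at most 0.0859 in eUB), the endothelial (5.05 to 14.1 and 0.965 to 1.98) and the pluripotent list (0.107 to 0.402 and 2.15 to 3.37). So were the ureteric bud (3010 to 3211 and 2138 to 2352) and the stromal list (147.8 to 164.8 and 201.1 to 224.1). The part of these lists in the counts was not tested. Under scaling by library totals the split of the called members was 13 higher and 14 lower. With the trend on gene length and GC content removed, 43 were called, 12 higher and 31 lower, beside 64.4% of all genes. Among the members, Cox6a2 and Cox7a1 had too few reads to be tested in the comparisons of ES-derived with E11.5 cells.

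By complex, complex I had 5 higher and 8 lower in eUB, complex II 0 and 1, complex III 1 and 3, complex IV 3 and 2, and complex V 1 and 4. Among the core subunits, Ndufv1, which binds NADH, was 0.34 lower and Sdhb, an iron-sulphur subunit of complex II, was 0.35 lower. Uqcrc1, a core protein of complex III, was at 150.5, 111.5, 103.1 and 97.5 normalised CPM in eUB and at 149.8 to 176.3 in E11.5_UB, a fall of 0.56. Atp5b, the catalytic beta subunit of ATP synthase, was at 1162, 904.0, 807.6 and 869.7 in eUB and at 1362 to 1386 in E11.5_UB. Its log2 fold change was −0.57 (SE 0.11, limma adjusted p = 0.00148), and the groups did not overlap. Atp5e, the epsilon subunit, fell by 0.74. Higher in eUB were Cox4i1, the usual subunit 4 of cytochrome c oxidase (log2 fold change 0.44), and Ndufaf7, a complex I assembly factor (0.67). Ndufaf7 stood at 16.1 to 17.0 in eUB against 9.57 to 10.6 in E11.5_UB.

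In iSP, 54 of 87 tested members differed from E11.5_SP, 50 higher and 4 lower, beside 67.6% of all genes (35.5% higher and 32.1% lower). The median member was 0.40 higher and the median gene 0.04 higher. Without E11.5_SP replicate 4 the count was 66, 64 higher and 2 lower, beside 72.4% of all genes. Erythroid markers, 6 genes in the table, summed to 44.2 to 185.9 in E11.5_SP with replicate 4 at 1149, and to at most 0.0483 in iSP. Other lists without overlap were the ureteric bud list (124.6 to 287.6 in E11.5_SP and 73.6 to 81.2 in iSP), the pluripotent (0.208 to 0.437 and 4.17 to 7.01) and the nephron progenitor list (79.4 to 134.3 and 143.1 to 154.8). So were the stromal (3371 to 5295 and 2870 to 3060) and the macrophage list (0.884 to 1.71 and 0.148 to 0.435). The part of these lists in the counts was not tested. Complex I had 27 higher and 2 lower, complex II 3 and 0, complex III 5 and 1, complex IV 6 and 1, and complex V 9 and 0. Core subunits higher in iSP included Ndufs7 (0.73) and Ndufv2 (0.74), both iron-sulphur proteins of complex I, Sdhd (0.53), a membrane anchor of complex II, Uqcrfs1 (0.58), the Rieske protein of complex III, and Atp5c1 (0.68), the central stalk of ATP synthase. Atp5b (−0.11), Atp5a1 (0.19), Ndufs1 (0.12) and Cox5a (0.20) did not pass the test. Genes of ribosomal proteins, 77 of them tested, had a median of 0.79 in the same comparison, and other short protein-coding genes a median of 0.20. The part of gene length in these values was not tested beyond a fit with the trend on length and GC content removed. That fit called 55 members, beside 69.8% of all genes, and the members' median was 0.24.

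In iNP, 40 of 87 tested members differed from E11.5_NP, 37 higher and 3 lower, beside 64.7% of all genes (35.5% higher and 29.2% lower). The median member was 0.39 higher and the median gene 0.07 higher. Without iNP replicate 2 the count was 53, 45 higher and 8 lower, beside 72.0% of all genes, and the median fell to 0.22. With the trend on length and GC content removed the median was 0.11. Several marker lists moved with this comparison: the endothelial list summed to 44.6 to 76.0 in iNP and 9.30 to 29.2 in E11.5_NP, the skeletal muscle list to 24.2 to 40.7 and 12.3 to 18.8, the pluripotent list to 3.41 to 6.10 and at most 0.103, and the erythroid list to at most 0.141 and 7.09 to 51.8. Their part in these counts was not tested. Complex I had 22 higher and 2 lower, complex II 1 and 0, complex III 3 and 1, complex IV 5 and 0, and complex V 6 and 0. Other short protein-coding genes had a median of 0.34 here and ribosomal protein genes a median of 0.66, so that the members' median lay between them.

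Of the 87 members tested in all of these comparisons, 31 (35.6%) were higher in both iSP and iNP, beside 23.8% of all 12780 genes tested in them. In all 3 ES-derived groups 8 were higher, 9.20% beside 14.8% of all genes (Ndufa4l2, Ndufa6, Ndufa13, Ndufv3, Uqcrh, Cox4i2, Cox6b2 and Atp5s), and 3 were lower, 3.45% beside 12.7% (Ndufs5, Ndufaf4 and Uqcrq). Ndufa4l2 in all of these comparisons, Cox4i2 in the ureteric bud and Ndufs5 in the ureteric bud and stroma reached the filter for testing, 1 normalised CPM in 4 libraries, only through the group where they were high. Without these 3 genes 6 members were higher in all ES-derived groups and 2 lower, and the calls were 8 higher and 17 lower in eUB (of 84), 49 and 3 in iSP (of 85) and 36 and 3 in iNP (of 86), each without those that apply. Another 18 were called in none, 20.7% of them where 1280 of the 12780 genes were called in none, among them Ndufs1, Ndufs8, Cox5a, Cox5b, Atp5a1 and Ndufa4. Ndufv3, a small subunit of the NADH-oxidising module, stood at 93.1 to 109.1 in iSP against 33.5 to 46.5 in E11.5_SP, at 78.8 to 111.8 in iNP against 33.8 to 36.0 in E11.5_NP, and at 47.7 to 73.6 in eUB against 36.7 to 39.4 in E11.5_UB. No ES-derived library overlapped with its E11.5 group, and the log2 fold changes were 1.34, 1.32 and 0.58 for iSP, iNP and eUB.

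Several members rose in the mesenchymal groups without passing the test in eUB. Ndufa7, an accessory subunit of complex I, was at 118.5 to 208 in iNP and at 63.6 to 74.4 in E11.5_NP, a difference of 1.03. It was at 127.7 to 150.7 in iSP and at 64.7 to 93.2 in E11.5_SP, a difference of 0.77. In eUB it was at 73.1 to 123.6, which overlapped with 68.7 to 84.3 in E11.5_UB (0.26, limma adjusted p = 0.164). Sdhc, a membrane anchor of complex II, stood at 166.5 to 203.7 in iSP, 144.1 to 206.6 in iNP and 55.9 to 96.9 in eUB. Its log2 fold changes were 0.83 in iSP, 0.76 in iNP and −0.09 in eUB. Atp5g2, one of 3 genes for the c subunit of the ATP synthase rotor, rose by 0.85 in iSP and 0.79 in iNP, with −0.11 in eUB. The copies Gm10231 and Gm10175, identical over 441 and 645 bases, make the count of Atp5g2 uncertain.

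**Figure D3:**
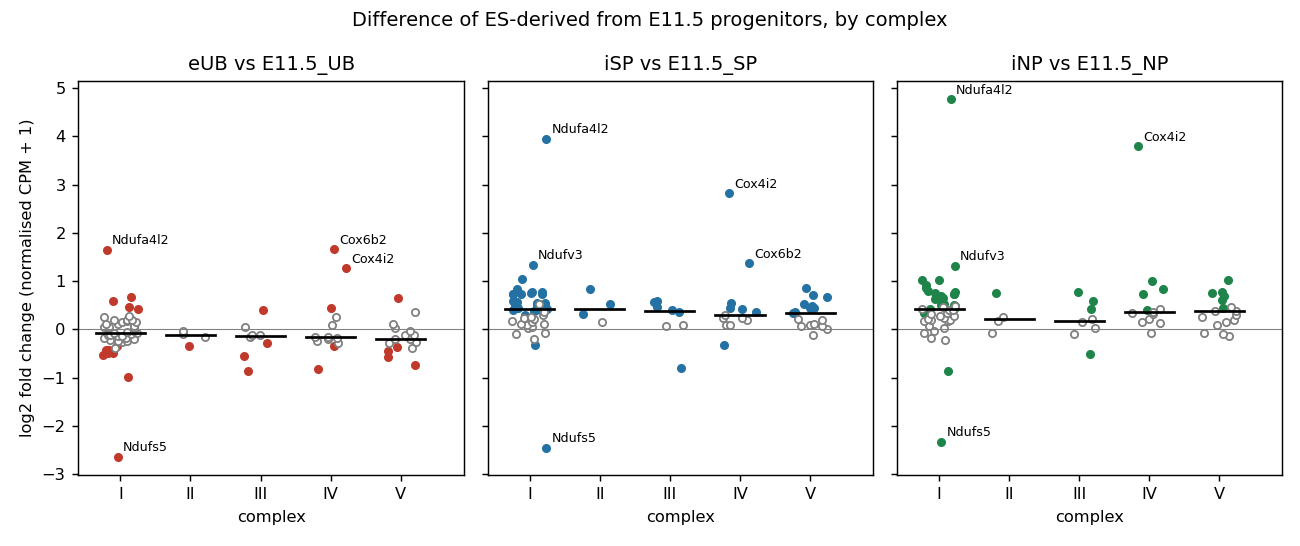
Log2 fold changes of the members in eUB, iSP and iNP against the E11.5 group of the same cell type, by complex, 1 point per gene, with coloured filled points for genes called at a limma adjusted p under 0.05, open points for the others and bars at the median of each complex. The medians over all complexes are −0.12 in eUB, 0.40 in iSP and 0.39 in iNP. The highest points are Ndufa4l2 and Cox4i2 in iSP and iNP and Cox6b2 and Ndufa4l2 in eUB, and the lowest is Ndufs5.

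The difference between ES-derived and E11.5 cells was itself compared between cell types. For 46 members it was called lower in the ureteric bud than in the stroma, and for 0 higher, beside 47.4% of all genes (24.2% higher and 23.3% lower). Against the nephron progenitors it was lower for 38 and higher for 0, beside 47.1% of all genes (22.3% higher and 24.9% lower). Between nephron progenitors and stroma 3 members differed, beside 29.3% of all genes (17.4% higher and 11.9% lower): Cox4i2 rose by 0.98 more in iNP, while Ndufaf4 and Sdha were 0.54 and 0.38 lower. Without the libraries that stand apart these counts were 73 (0 higher and 73 lower, beside 60.9% of all genes), 63 (2 higher and 61 lower, 59.6%) and 30 (1 higher and 29 lower, 39.7%). With 1 library left out the first count ran from 30, without iSP replicate 1, to 62. The second ran from 26 to 58, the latter without eUB replicate 1. The third was 0 without iSP replicate 3, 8 without iNP replicate 2, and 1 without E11.5_NP replicate 2, 3 or 4, E11.5_SP replicate 1, iNP replicate 1 or 4, or iSP replicate 1 or 4. The shares of all genes called in these single-library fits are not given beside them. With the trend on length and GC content removed the third was 17, 2 higher and 15 lower, beside 40.4% of all genes. Without Ndufa4l2, which reached the filter only through the ES-derived libraries, the first 2 counts were 45 and 37, all lower. Sdhc differed by −0.92 between ureteric bud and stroma and by −0.84 between ureteric bud and nephron progenitors. For Cox6b1, the widespread form of subunit 6b, the first of these was −0.82. All 4 genes of complex II were called lower in the comparison with the stroma. Compared directly, 60 of 87 members differed between eUB and the mean of iNP and iSP, 1 higher and 59 lower, beside 62.9% of all genes (30.3% higher and 32.6% lower). The exception was Ndufaf4, 0.52 higher in eUB. Without eUB replicate 1 and iNP replicate 2 there were 77, 2 higher and 75 lower, beside 76.2% of all genes. The line of origin, the course of differentiation factors and the sort all differ between eUB and the mesenchymal groups. These and cell type cannot be told apart there.

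In iNP and iSP the largest differences among the members were in 2 isoform genes linked to low oxygen. Ndufa4l2 (chr10:127514967-127517154, plus strand, GRCm38) encodes a relative of Ndufa4, a protein first assigned to complex I and now placed with complex IV, and is counted here with complex I by its symbol. It stood at 35.5, 50.9, 34.9 and 32.2 normalised CPM in iNP, at 29.4, 30.5, 26.2 and 24.4 in iSP, and at 4.23, 3.02, 2.36 and 2.69 in eUB. In the 24 embryonic libraries it was at most 1.43, except in E12.5_UB replicate 1, at 11.7. Against E11.5 the log2 fold changes were 4.78 in iNP (SE 0.25), 3.95 in iSP (SE 0.18) and 1.65 in eUB (SE 0.17). Since it passed the filter only through the ES-derived groups, its fold changes are given as a description.

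Cox4i2 (chr2:152754173-152765037, plus strand) encodes the alternative subunit 4 of cytochrome c oxidase. It stood at 27.6, 50.9, 29.1 and 28.4 in iNP, at 41.0, 32.7, 28.8 and 33.3 in iSP and at 4.08, 2.52, 1.93 and 3.97 in eUB. E11.5_NP held 1.24 to 1.61, E11.5_UB held 0.415 to 0.925, and E11.5_SP held 2.99 to 3.40 with replicate 4 at 6.97. The log2 fold changes were 3.80 in iNP (SE 0.19), 2.82 in iSP (SE 0.22) and 1.26 in eUB (SE 0.20), and no ES-derived library overlapped with its E11.5 group. In the ureteric bud comparison Cox4i2 too passed the filter only through eUB, and without eUB replicate 1 neither gene passed it there, so that neither has a value. The difference from E11.5 was smaller in the ureteric bud than in the nephron progenitors by 3.13 for Ndufa4l2 and by 2.54 for Cox4i2 (for Cox4i2, limma adjusted p = 1.80e-06).

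Against E12.5_UB neither gene was called in eUB, with log2 fold changes of 0.57 for Ndufa4l2 and 0.53 for Cox4i2. Without E12.5_UB replicate 1, which also held endothelial and stromal markers, they were 1.32 and 1.23, again for genes that passed the filter only through eUB. Endothelial markers also differed between the ES-derived groups: the 5-gene list, Pecam1, Cdh5, Kdr, Tie1 and Emcn, summed to 44.6 to 76.0 in iNP and 33.5 to 53.9 in iSP, against 9.30 to 29.2 in E11.5_NP and 14.5 to 43.1 in E11.5_SP. In eUB it summed to 0.965 to 1.98, with up to 4 of the 5 genes at 0. The sort of iNP, iSP, NP and SP cells had removed cells positive for CD31, the product of Pecam1. The part of such cells in the iNP and iSP values was not tested.

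**Figure D4:**
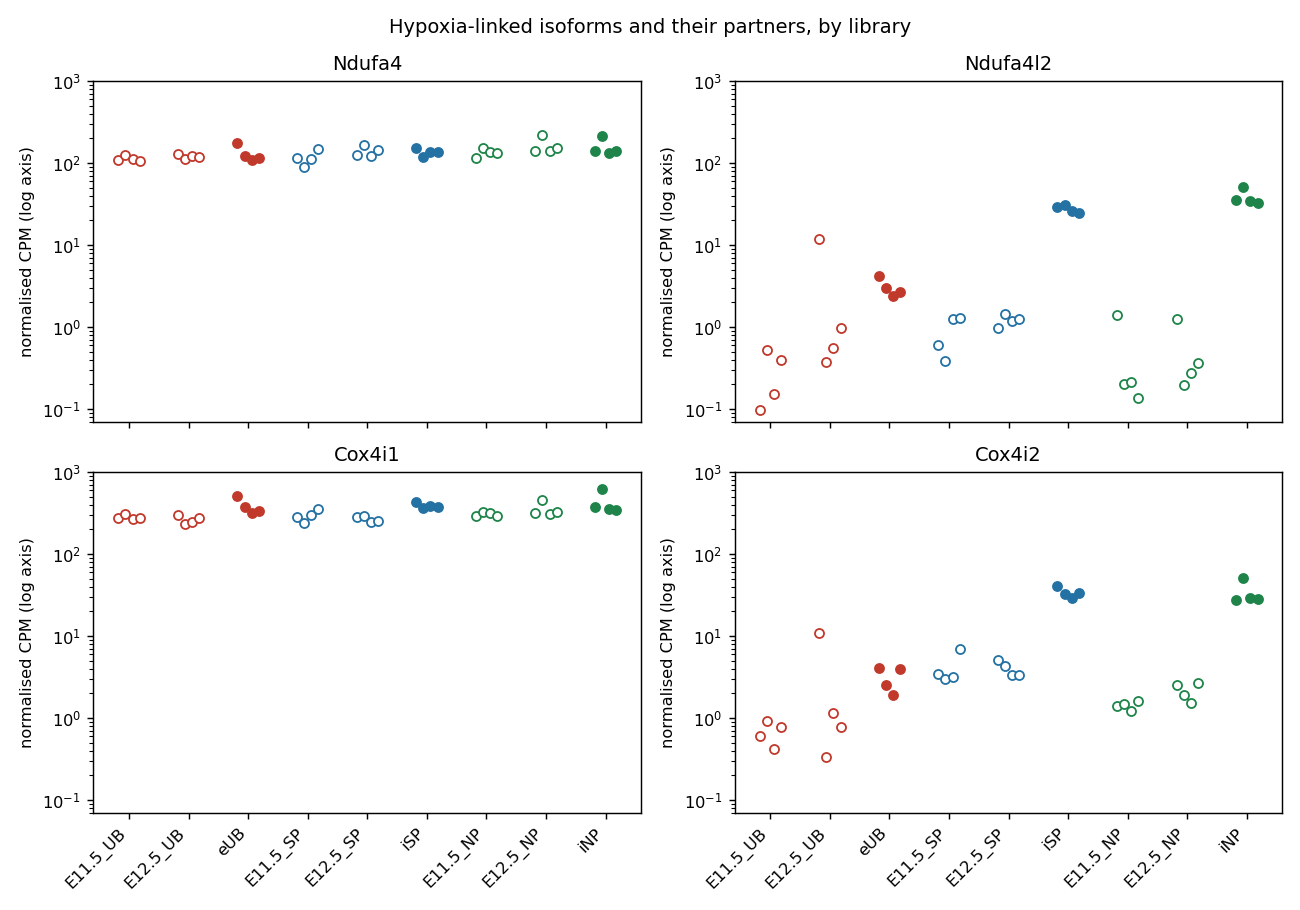
Normalised CPM (log axis) of Ndufa4l2 and Cox4i2 and of their partners Ndufa4 and Cox4i1, by group, 1 point per library. Red marks UB, blue SP and green NP, filled for ES-derived and open for embryonic libraries. Ndufa4l2 and Cox4i2 lie between 24.4 and 50.9 in iNP and iSP and between 1.93 and 4.23 in eUB, far below Ndufa4 and Cox4i1 in the same libraries.

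Of the partners, Cox4i1 was called higher in eUB (0.44) and iSP (0.42) and not in iNP (0.43, limma adjusted p = 0.0541). Ndufa4 was not called in any of the comparisons with E11.5, with log2 fold changes of 0.19 in eUB, 0.24 in iSP and 0.20 in iNP. Per kilobase of exonic length, Ndufa4l2 made up 23.6% ± 1.12 of the Ndufa4 pair in iNP and 20.6% ± 2.65 in iSP (SD, n = 4). It made up 2.87% ± 0.145 in eUB and 0.320% ± 0.208 in E11.5_UB. In E12.5_UB it made up 3.07% ± 4.82, with libraries from 0.420% to 10.3%. The other embryonic groups averaged between 0.441% and 1.09%. Cox4i2 made up 13.5% ± 0.630 of the Cox4 pair per kilobase in iNP, 14.6% ± 1.14 in iSP, 1.57% ± 0.475 in eUB and between 0.474% and 2.85% on average in the embryonic groups. The partner thus remained the more abundant form in each group.

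Cox6b2, the testis form of subunit 6b, had another order. It stood at 26.0, 19.3, 17.95 and 19.4 in eUB against 5.02 to 7.48 in E11.5_UB, at 18.9 to 24.5 in iSP against 5.51 to 10.7 in E11.5_SP, and at 9.25, 19.7, 11.8 and 9.49 in iNP against 4.62 to 6.48 in E11.5_NP. No ES-derived library overlapped with its E11.5 group, and the log2 fold changes were 1.66, 1.37 and 1.01. Per kilobase it made up 11.1% ± 0.722 of the Cox6b pair in eUB and 2.85% ± 0.468 in E11.5_UB (SD, n = 4). In the embryo Cox6b2 was higher in E12.5_SP, at 12.2 to 16.1, than in E12.5_NP, at 4.26 to 6.08 (log2 fold change −1.22 for NP against SP, limma adjusted p = 0.000258).

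The muscle isoforms were near the detection limit. Cox6a2 had no read in any eUB or E12.5_SP library, and reached 0.387 to 1.06 in iNP and 0.222 to 0.541 in iSP. The list of 6 skeletal muscle markers summed to 24.2 to 40.7 in iNP, 8.74 to 17.8 in iSP and 2.34 to 2.97 in eUB, and its part in the Cox6a2 reads was not tested. Cox7a1 averaged between 0.146 in E12.5_SP and 0.497 in iNP.

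The most negative log2 fold changes belonged to Ndufs5, an accessory subunit of complex I (chr4:123712710-123718202, minus strand). Its value fell from 10.4 to 14.3 in E11.5_UB to 0.687 to 1.78 in eUB, from 9.39 to 13.4 in E11.5_SP to 0.845 to 1.72 in iSP, and from 9.95 to 13.5 in E11.5_NP to 1.32 to 2.23 in iNP. The log2 fold changes were −2.64, −2.45 and −2.33, and in the ureteric bud and stroma the gene passed the filter only through the E11.5 group. The genome holds a near copy of this transcript, the processed pseudogene BC002163 (chr16:42955631-42955949, plus strand), which matches 99.4% of 319 bases and differs in 2 of them. The stretch below, bases 61 to 120 counted from the first base of the match, holds both differences, T81C and A105G, in capitals (Ndufs5 base first, GENCODE vM21, GRCm38):
Ndufs5: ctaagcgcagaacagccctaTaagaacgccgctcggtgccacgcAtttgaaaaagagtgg
BC002163: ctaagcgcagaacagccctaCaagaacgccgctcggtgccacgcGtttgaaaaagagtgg

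The copy moved opposite to the gene. BC002163 averaged 1.65 ± 0.687 in E11.5_UB and 10.8 ± 1.53 in eUB, 1.74 ± 1.60 in E11.5_SP and 14.6 ± 0.860 in iSP, and 1.24 ± 0.836 in E11.5_NP and 19.9 ± 6.12 in iNP (SD, n = 4). Its log2 fold changes were 2.19, 2.67 and 3.26, and it too passed the filter only through the groups where it was high, here the ES-derived ones. The sum of both genes differed by −0.22 in eUB, 0.24 in iSP and 0.61 in iNP on the log2 scale. BC002163 held 87.9% to 94.6% of that sum in the 12 ES-derived libraries. It held 3.20% to 23.1% in the embryonic libraries, except replicate 1 of E12.5_NP, E12.5_SP and E12.5_UB, with 32.0%, 34.0% and 36.7%. A read from the long identical stretches can be counted for either gene, so the fall of Ndufs5 alone is uncertain. The strain of the mice and that of the ES cells differ, and strain and origin cannot be told apart here.

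**Figure D5:**
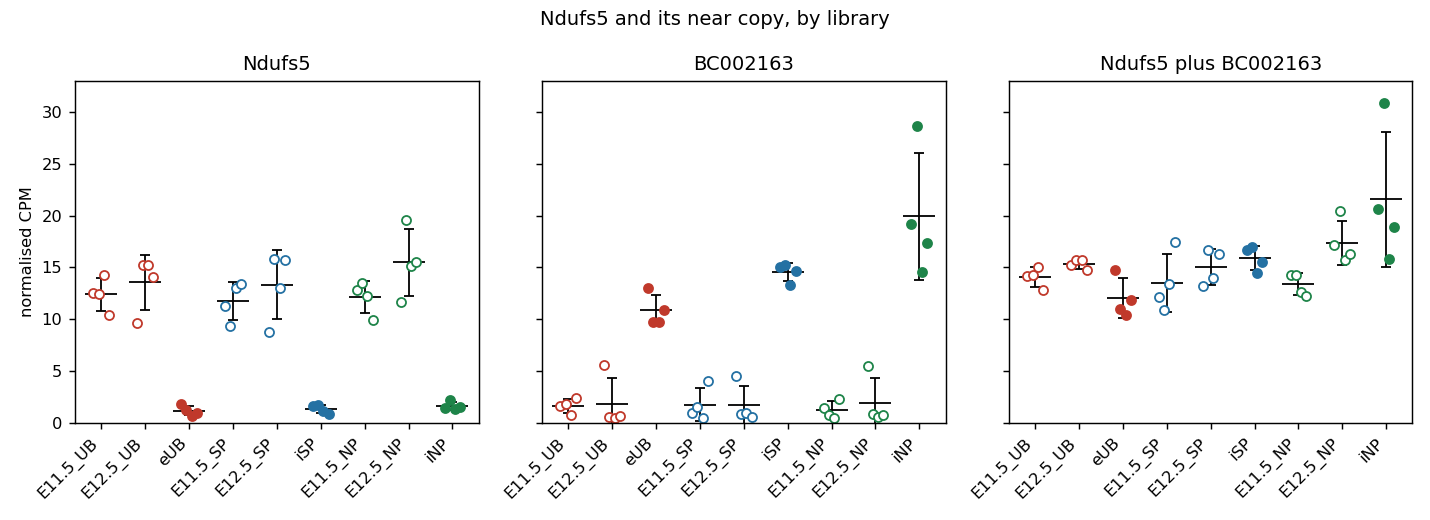
Normalised CPM of Ndufs5, of its near copy BC002163 and of their sum, by group, 1 point per library with bars at the mean ± SD (n = 4). Red marks UB, blue SP and green NP, filled for ES-derived and open for embryonic libraries. Ndufs5 averages 1.176 to 1.62 in the ES-derived groups and 11.8 to 15.5 in the embryonic ones, BC002163 lies the other way round, and the sums overlap more.

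Near copies of at least 95% identity over at least 200 bases were found for 27 members, 19 of them with a pseudogene copy in the table. Gm10039, a copy of the rotor subunit gene Atp5g1 (99.8% identical over 411 bases), was lower in the ES-derived groups than at E11.5. It stood at 5.33 to 10.9 in E11.5_UB, 3.74 to 9.14 in E11.5_SP and 4.75 to 14.97 in E11.5_NP, against 0.472 to 1.74 in eUB, 0.773 to 1.48 in iSP and 0.918 to 1.30 in iNP. The lowest library of E12.5_SP, at 1.72, lay above all iSP libraries, and that of E12.5_NP, at 1.43, above all iNP libraries. The lowest of E12.5_UB, at 1.65, overlapped with eUB. Atp5g1 itself averaged 52.6 ± 3.35 in E11.5_UB and 49.6 ± 15.1 in eUB. Exons of 26 members overlapped another gene of the table.

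Uqcrq and Ndufaf4 also fell in all ES-derived groups. Uqcrq, a small subunit of complex III, stood at 49.9 to 80.6 in eUB against 105.1 to 127.1 in E11.5_UB and at 46.9 to 62.8 in iSP against 70.9 to 114.6 in E11.5_SP, without overlap. In iNP it stood at 60.95 to 62.7, below the 97.7 to 106.6 of E11.5_NP, apart from replicate 2 at 106.2. The log2 fold changes were −0.87 in eUB (SE 0.14), −0.80 in iSP (SE 0.15) and −0.51 in iNP (SE 0.17). Ndufaf4, a complex I assembly factor, stood at 14.0 to 16.1 in iNP against 21.9 to 34.5 in E11.5_NP and at 20.8 to 23.3 in eUB against 29.7 to 34.1 in E11.5_UB. Its log2 fold changes were −0.87 in iNP and −0.53 in eUB. In iSP it was −0.33, a call that was lost without E11.5_SP replicate 4 (limma adjusted p = 0.0775).

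Other members fell in eUB. Ndufaf3, a complex I assembly factor, stood at 9.58, 7.67, 5.84 and 6.66 in eUB and at 13.8 to 17.96 in E11.5_UB, a fall of 0.98 (SE 0.15), while its values in iSP (0.15) and iNP (0.04) were not called. The difference between cell types was called for it, at −1.13 against the stroma and −1.01 against the nephron progenitors. Cox6a1, the widespread form of subunit 6a, stood at 134.3, 90.1, 75.4 and 83.0 in eUB and at 143.9 to 178.8 in E11.5_UB, a fall of 0.83. In iSP Cox6a1 was −0.33, which did not pass without E11.5_SP replicate 4 (limma adjusted p = 0.0728), and in iNP −0.07.

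Fewer members were called against the E12.5 groups, in comparisons that share the ES-derived libraries with those above. In eUB 19 of 87 members differed from E12.5_UB, 3 higher and 16 lower, beside 44.4% of all genes (23.3% higher and 21.2% lower). The higher ones were Cox6b2 (1.92), Cox4i1 (0.54) and Ndufaf7 (0.45). Without eUB replicate 1 there were 51, 3 higher and 48 lower, beside 51.7% of all genes. Without eUB replicate 2 or 4, or E12.5_UB replicate 3 or 4, there were 12, a count that stands without the share of all genes in those fits. Removal of the trend on length and GC content gave 42, 5 higher and 37 lower, beside 48.2% of all genes. Macrophage markers summed to 42.8 to 71.8 in E12.5_UB. In iSP 48 differed from E12.5_SP, 44 higher and 4 lower, beside 62.1% of all genes (33.3% higher and 28.8% lower), with Ndufa4l2 (3.69), Cox4i2 (2.80), Atp5g2 (1.06) and Ndufa6 (0.95) the highest. Erythroid markers summed to 249.3 to 2399 in E12.5_SP, and the part of neither list was tested. In iNP 12 differed from E12.5_NP, 9 higher and 3 lower, beside 44.3% of all genes (25.6% higher and 18.7% lower). Here Ndufa4l2 (4.72), Cox4i2 (3.43), Cox6b2 (1.07) and Ndufv3 (0.96) were the highest, and Ndufs5 (−2.64), Ndufaf4 (−1.12) and Uqcrq (−0.63) the lower ones. Without iNP replicate 2 and E12.5_NP replicate 2 the count was 35, 27 higher and 8 lower, beside 54.7% of all genes. All samples in the fit gave 29, 23 higher and 6 lower, beside 57.5% of all genes, and a replicate block gave the same split beside 51.1%. Equal replicate numbers do not pair a differentiation with a litter, so that block has no basis in the design. The median was 0.04 without iNP replicate 2. Once the trend on length and GC content was removed 19 were called, 6 higher and 13 lower, beside 51.6% of all genes, and the members' median against E12.5_NP turned from 0.18 to −0.06. Here too Ndufa4l2 in the mesenchymal groups passed the filter only through the ES-derived libraries, as did Ndufa4l2 and Cox4i2 in eUB, and Ndufs5 in the ureteric bud and stroma only through the embryonic ones. Their fold changes are a description, and without them 18 of 84 members were called in eUB, 46 of 85 in iSP and 11 of 86 in iNP.

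Between E11.5 and E12.5, 1 of 85 members was called in the ureteric bud, Ndufv3, at 46.8 to 49.7 against 36.7 to 39.4 at E11.5 (log2 fold change 0.34, limma adjusted p = 0.00363), beside 26.5% of all genes (14.2% higher and 12.3% lower). Without E11.5_UB replicate 3 there were 6, 4 higher and 2 lower, and without E12.5_UB replicate 2 there were 2. Upper-quartile scaling gave 6, 1 higher and 5 lower, beside 28.0% of all genes, and removal of the trend on length and GC content gave 12, 10 higher and 2 lower, beside 28.5%. In the nephron progenitors 1 of 86 was called, Atp5k, the e subunit of ATP synthase, at 64.3 to 89.9 against 48.8 to 51.4 (0.56, limma adjusted p = 0.0269), beside 6.34% of all genes (2.74% higher and 3.59% lower). Leaving out any E11.5_NP library, or E12.5_NP replicate 4, left 0 called, and without E12.5_NP replicate 1 there were 5. Without E12.5_NP replicate 2 there was 1, beside 9.38% of all genes. All samples in the fit gave 5 and removal of the trend gave 7, all higher, beside 11.4% and 8.54% of all genes. The median member was 0.20 higher at E12.5 in the nephron progenitors, and 0.10 higher without E12.5_NP replicate 2. In the stroma limma called 0 of 87, beside 8.52% of all genes (3.73% higher and 4.8% lower). There 9 had an unadjusted p under 0.05, and edgeR on the recovered reads called 0 as well. Without E11.5_SP replicate 4 limma called 4, all higher, beside 10.7% of all genes, and without E12.5_SP replicate 1 it called 1. With all samples in the fit 5 were called, all higher, beside 21.9% of all genes, and with the trend removed 5, 4 higher and 1 lower, beside 11.8%.

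Within the embryo, 9 of 86 members differed between E11.5_NP and E11.5_SP, 8 higher and 1 lower, beside 43.1% of all genes (21.0% higher and 22.2% lower). The highest was Uqcrfs1, at 137.7 to 155.5 in E11.5_NP and 81.6 to 113.3 in E11.5_SP (0.57), followed by Ndufaf4 (0.52) and Atp5sl (0.49), the latter an assembly factor of complex I despite its symbol. Cox4i2 was the lower one (−1.02). Marker lists of other cell types differed too, among them the ureteric bud list (26.6 to 49.6 in E11.5_NP and 124.6 to 287.6 in E11.5_SP) and the erythroid list (7.09 to 51.8 and 44.2 to 1149). At E12.5 the erythroid list summed to 2.90 to 61.9 in E12.5_NP and 249.3 to 2399 in E12.5_SP. Their part in the counts was not tested. Without E11.5_SP replicate 4 the count was 27, 26 higher and 1 lower, beside 46.7% of all genes, and without E11.5_NP replicate 2 it was 5. It was 23 with the trend on length and GC content removed, 18 higher and 5 lower, beside 50.4% of all genes. At E12.5, 15 of 87 differed, 13 higher and 2 lower, beside 34.8% of all genes (17.0% higher and 17.8% lower), with Uqcrfs1 again the highest (0.81). Without E12.5_SP replicate 3 or 4 the count was 5, without E12.5_SP replicate 2 it was 8 and without E12.5_NP replicate 4 it was 7. Without E12.5_NP replicate 2 it was 13, 10 higher and 3 lower, beside 32.2% of all genes. With the trend removed it was 25, 20 higher and 5 lower, beside 40.8%, and with all samples in the fit 29, 28 higher and 1 lower, beside 48.2%. Equal replicate numbers deviated together in these E12.5 groups, and 40 members were called once the fit blocked on that number, 35 higher and 5 lower, beside 57.8% of all genes (30.2% higher and 27.6% lower).

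The ureteric bud differed from the mean of both mesenchymal groups in 13 of 86 members at E11.5, 7 higher and 6 lower, beside 56.4% of all genes (26.9% higher and 29.5% lower). At E12.5 it differed in 11 of 87, 1 higher and 10 lower, beside 40.3% of all genes (20.9% higher and 19.4% lower). The E11.5 count was 8 without E11.5_UB replicate 1, 7 without E11.5_UB replicate 4 and 23, 17 higher and 6 lower beside 60.4% of all genes, without E11.5_SP replicate 4. The E12.5 count was 5 without E12.5_UB replicate 2 or 3, 6 without E12.5_UB replicate 4 and 7 without E12.5_SP replicate 2. Without E12.5_NP replicate 2 it was 14, 4 higher and 10 lower, beside 42.2% of all genes. With the trend on length and GC content removed the counts were 35 at E11.5, 6 higher and 29 lower beside 59.6% of all genes, and 28 at E12.5, 1 higher and 27 lower beside 45.8%. The members' median at E11.5 then turned from 0.01 to −0.11. Ndufs6, an accessory subunit of complex I, was higher at both ages: at E11.5 it stood at 50.7 to 58.3 in the ureteric bud, 32.1 to 37.7 in nephron progenitors and 26.7 to 43.1 in stroma. Its log2 fold changes were 0.68 at E11.5 and 0.50 at E12.5. Sdhc was lower at both, by 0.41 and 0.44. Macrophage markers summed to 42.8 to 90.4 in the embryonic ureteric bud libraries and to at most 1.73 elsewhere, and their part in these values was not tested. Between iNP and iSP 4 of 87 differed, beside 30.7% of all genes (16.5% higher and 14.2% lower): Ndufa4l2 (0.44), Ndufaf7 (0.39) and Atp5sl (0.35) were higher in iNP and Cox6b2 lower (−0.81). Without iNP replicate 2 the count was 13, 5 higher and 8 lower, beside 43.8% of all genes. It was 0 without iSP replicate 1, and 1 without any other iNP or iSP library. Upper-quartile or quantile scaling left 1 called, lower in iNP, and removal of the trend on length and GC content gave 10, 4 higher and 6 lower, beside 40.9% of all genes.

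Genes that work with the members were described by lists. Of 13 protein genes of the mitochondrial genome, 10 were in the table and 7 were tested. None of them was higher in iSP or iNP against E11.5, where 4 and 5 were lower, and 1 was higher and none lower in eUB. Of all genes 60.5% were called in eUB, 67.6% in iSP and 64.7% in iNP. The medians were −0.36 in iSP, −0.85 in iNP and 0.13 in eUB. mt-Nd2, a complex I subunit, stood at 383.5 to 686.2 in iNP against 1012 to 1581 in E11.5_NP, a fall of 1.21. mt-Co1, the catalytic subunit of complex IV, was 0.77 higher in eUB. The mitochondrial genes called were thus lower in iSP and iNP, where most nuclear members called were higher. Both cytochrome genes, Cyc1 and Cycs, were lower in eUB, by 0.62 each. Cycs alone was called in iSP (−0.90) and Cyc1 alone in iNP (−0.37), both lower.

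Of 48 listed assembly factors outside the rule, 45 were in the table and tested, of which 12 were higher and 11 lower in eUB, 28 and 4 in iSP and 21 and 5 in iNP, beside 60.5%, 67.6% and 64.7% of all genes called in these comparisons. Tmem70, which assembles the ATP synthase rotor, was higher in all 3 (1.45, 1.57 and 1.35), and so was Coa4 of complex IV (0.57, 1.91 and 1.37). Sco1, which delivers copper to complex IV, was lower in all 3 (−0.75, −0.66 and −0.73), as was Ttc19 of complex III (−0.48, −0.99 and −0.86). Of 13 genes of the TCA cycle, 0 were higher and 5 lower in eUB, 3 and 1 in iSP, and 1 and 4 in iNP, beside the same shares of all genes. Dlst, of the oxoglutarate dehydrogenase complex, fell in all 3 groups (−0.52, −0.71 and −0.65), while Fh1, fumarase, rose in iSP (0.79) and iNP (0.81).

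Of 10 genes linked to hypoxia and respiration, 7 were higher and 1 lower in eUB, 8 and 1 in iSP and 7 and 2 in iNP. Of all genes 32.1% were higher in eUB and 35.5% each in iSP and iNP. Bnip3, a mitophagy receptor, stood at 141.8 to 230.6 in eUB against 23.7 to 30.0 in E11.5_UB, with log2 fold changes of 2.69 in eUB, 3.37 in iSP and 3.35 in iNP. Egln3, an oxygen-sensing prolyl hydroxylase, differed by 2.29, 3.65 and 4.80. Hif1a, the oxygen-regulated transcription factor, was the gene lower in all 3, by 0.30, 0.51 and 0.68. Unlike Ndufa4l2, Bnip3 averaged about the same in the ES-derived groups, at 176.5 ± 38.0 in eUB, 165.8 ± 20.9 in iSP and 163.0 ± 21.6 in iNP (SD, n = 4). Culture and line of origin cannot be told apart in these groups.

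Of 16 tested regulators of respiratory gene transcription and mitochondrial DNA, 3 were higher and 9 lower in eUB, 7 and 7 in iSP and 4 and 9 in iNP, beside 60.5%, 67.6% and 64.7% of all genes called. Yy1 fell in all 3 (−1.54, −1.09 and −1.04), and so did Gabpa (−0.55, −0.71 and −0.84) and Nrf1 (−0.41, −0.27 and −0.55), in the order eUB, iSP and iNP. The coactivator Ppargc1a was lower in iSP (−2.97) and iNP (−2.03), and Ppargc1b was lower in iNP (−2.43). Tfb1m, a mitochondrial rRNA methyltransferase, was higher in iSP (1.64) and iNP (1.57).

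Promoter windows of 300 bases, from 250 before to 50 after the start of the gene, were available from RefSeq (GRCm38.p6) for 71 of the 89 members and for 27025 genes in all, and were searched on both strands. A gene was counted if any of its windows held the motif. The 27025 genes outnumber the 22761 of the table, so the members stand beside a wider set that was not limited to genes measured here. The NRF1-type motif, the half-site GCGCA followed by its reverse complement, was found for 7 members, 9.86%, and for 1.07% of all genes with a window. The GABPA-type motif CCGGAAG was found for 23.9% of members and 9.93% of all, and the YY1-type motif AAGATGGC for 12.7% and 3.19%. The short hypoxia core ACGTG was found for 22.5% of members and 21.8% of all. A match is a description of these letters and not a measured binding site. Of the 7 members with the NRF1-type motif, the following 3 are shown as examples of unlike changes. Ndufaf4 was lower in all 3 ES-derived groups and Cox6a1 in eUB and iSP, while Atp5g2 was higher in iSP and iNP. The motif is in capitals, and the windows lie at chr4:24897833-24898132 (plus strand), chr5:115348909-115349208 (minus strand) and chr15:102670998-102671297 (minus strand):
Ndufaf4: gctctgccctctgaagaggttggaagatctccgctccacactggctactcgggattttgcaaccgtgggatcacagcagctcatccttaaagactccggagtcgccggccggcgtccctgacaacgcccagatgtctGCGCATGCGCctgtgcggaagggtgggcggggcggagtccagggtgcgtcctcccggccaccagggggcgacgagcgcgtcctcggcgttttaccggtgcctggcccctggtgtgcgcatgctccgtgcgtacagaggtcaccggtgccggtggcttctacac
Cox6a1: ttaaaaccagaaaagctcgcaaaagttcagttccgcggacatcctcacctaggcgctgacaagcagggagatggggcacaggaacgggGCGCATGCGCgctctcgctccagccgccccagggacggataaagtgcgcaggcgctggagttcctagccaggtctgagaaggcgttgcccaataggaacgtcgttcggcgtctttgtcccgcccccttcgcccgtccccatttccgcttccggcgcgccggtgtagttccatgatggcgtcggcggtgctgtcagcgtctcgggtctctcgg
Atp5g2: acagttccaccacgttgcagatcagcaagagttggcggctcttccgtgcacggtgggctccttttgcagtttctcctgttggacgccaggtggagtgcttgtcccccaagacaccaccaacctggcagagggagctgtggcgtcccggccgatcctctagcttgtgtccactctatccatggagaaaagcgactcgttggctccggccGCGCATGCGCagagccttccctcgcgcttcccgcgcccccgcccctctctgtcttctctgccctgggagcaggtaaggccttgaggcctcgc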

How the data were processed

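The authors used Cutadapt for trimming, STAR for alignment and edgeR for scaling the gene counts, per the labels and the study's methods. The labels name a human build, while the gene identifiers are those of mouse genes, so annotation was taken from GENCODE vM21 (GRCm38). The deposited table holds normalised CPM, a signal per gene and library with replicates kept apart. 100% of its values were whole multiples of 1 read within 0.01, so reads could be recovered. A second deposited table holds the authors' own comparisons and was not used.

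The main test was limma 3.58.1 (R 4.3.3, with a trend) on log2(normalised CPM + 1), over genes at 1 or more in at least 4 libraries, with Benjamini-Hochberg adjustment over all genes and a threshold of 0.05. The pseudocount makes fold changes of low genes smaller. Only the groups compared entered a fit. edgeR 4.0.16 on recovered reads, other scalings, filters and pseudocounts, a trend on length and GC content, a replicate block and leaving out libraries were alternatives. Near copies were sought with BLAST 2.17.0. Scripts used Python 3.11.15, and tests were tried on simulated counts first.

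Libraries of a group are separate litters or differentiations per the labels. Equal replicate numbers paired the samples only for E12.5_NP and E12.5_SP, where the correlations of deviations from the group means were 0.543 to 0.700. The members and gene lists were chosen with earlier results of these data known. Per comparison of ES-derived with E11.5 cells, the genes named were the 8 largest called differences in each direction and any beyond 1 on the log2 scale, in other comparisons the 4 largest in each direction, plus isoform pairs, core subunits and the largest of each list. From these a selection is printed. Ndufaf3 and Cox6a1 in groups where they were not called, Ndufs6, Sdhc, Cox6a2, Hif1a, Bnip3, Nrf1, Gabpa and Gm10039 were described after their values were seen.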

Additional observations from a re-analysis of the deposited data

Results flagged for a closer look

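Among 4 libraries of a group, 1 library stood far from the other 3 in 27 of 162 tests (18 quantities in 9 groups). A single such test flags about 1 in 20 groups by chance. The quantities overlap and their genes were chosen for the text, so the 27 cannot be read against that rate. No explanation was tested for any of them. In iNP replicate 2 the share of reads was 1.62% for all members (others 1.07% to 1.16%), 0.491% for complex I, 0.0851% for complex II, 0.144% for complex III and 0.282% for complex IV. The same library held 50.9 normalised CPM of Cox4i2, 106.2 of Uqcrq, 17.6 of Ndufaf3, 244.4 of Cox6a1 and 208.4 of Ndufa7. In E12.5_NP replicate 2 the share was 1.40% for all members (others 1.02% to 1.07%), 0.352% for complex I, 0.121% for complex III and 0.644% for complex V, and the library held 135.3 normalised CPM of Uqcrq, 229.7 of Cox6a1 and 60.6 of Atp5g2. In eUB replicate 1 the share of complex III was 0.103% (others 0.0675% to 0.0723%).

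E12.5_UB replicate 1 held 11.7 normalised CPM of Ndufa4l2 (others 0.379 to 0.966) and 10.9 of Cox4i2 (others 0.331 to 1.14). It also held the marker sums of other cell types given above, whose part was not tested. Ndufa4l2 was at 1.40 in E11.5_NP replicate 1 and 1.26 in E12.5_NP replicate 1, Cox4i2 at 6.97 in E11.5_SP replicate 4, and Uqcrq at 127.1 in E11.5_UB replicate 2. BC002163 held 32.0%, 34.0% and 36.7% of its sum with Ndufs5 in replicate 1 of E12.5_NP, E12.5_SP and E12.5_UB, where the other libraries of these groups held 3.20% to 6.85%.

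The difference between ES-derived and E11.5 cells differed between cell types, by limma with Benjamini-Hochberg adjustment, for 46 members between ureteric bud and stroma (0 higher and 46 lower, beside 47.4% of all genes), 38 between ureteric bud and nephron progenitors (0 higher and 38 lower, beside 47.1%) and 3 between nephron progenitors and stroma (1 higher and 2 lower, beside 29.3%). Without Ndufa4l2 the first 2 counts were 45 and 37. That gene reached the filter only through ES-derived libraries, and its values are a description. For Ndufa4l2 the differences were −3.13 (ureteric bud against nephron progenitors) and −2.30 (ureteric bud against stroma). For Cox4i2 they were −2.54, −1.55 and, for nephron progenitors against stroma, 0.98.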

How the results depend on the processing

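Of 737 alternative values for the counts of members called and the medians of members tested, 614 kept their size class. A count was judged by its total alone, whatever its split into higher and lower, and a median also by its sign. Of 119 values of named genes, 89 kept direction and call in every setting where the gene was tested. Another 30 lost the call in at least 1 setting and 1 changed sign, and not all of these are marked in the text. Settings in which a gene did not pass the filter were not counted. The cause of the changes was not tested. With all 36 samples in a fit, counts were 29 for iNP vs E12.5_NP, 5 for E12.5_SP vs E11.5_SP, 5 for E12.5_NP vs E11.5_NP, 29 for E12.5_NP vs E12.5_SP and 1 for the nephron progenitor to stroma difference. edgeR called 2 in E12.5_NP vs E11.5_NP. With the trend on length and GC content removed, counts were 43 (eUB vs E11.5_UB), 42 (eUB vs E12.5_UB), 19 (iNP vs E12.5_NP), 12, 5 and 7 (age, in UB, SP and NP), 23 and 25 (NP vs SP at E11.5 and E12.5), 35 and 28 (UB vs mesenchyme), 10 (iNP vs iSP) and 17 (nephron progenitor to stroma difference). Medians were then 0.11 (iNP vs E11.5_NP, and iSP vs E12.5_SP), and turned to −0.057 (iNP vs E12.5_NP), −0.11 (E11.5_UB vs mesenchyme) and −0.019 (iNP vs iSP), as did Cox7a2 in iNP (−0.005). With a replicate block added, the medians stayed at those values and the counts were 43, 36 (eUB vs E12.5_UB), 29, 2 and 3 (age, UB and NP), 24, 46, 35, 32 and 15. Scaling by library totals gave 2, 1 and 4 (age), 18, 26 and 6 (E12.5_UB vs mesenchyme). Quantile scaling gave 19, 14, 1 (iNP vs iSP) and 1. Upper-quartile scaling gave 6 (E12.5_UB vs E11.5_UB, median −0.028), 1 (iNP vs iSP) and a median of −0.006 (E11.5_UB vs mesenchyme). With no filter, iNP vs iSP gave 2. The replicate block alone gave 29 (iNP vs E12.5_NP), 40 (E12.5_NP vs E12.5_SP) and 2 (iNP vs iSP). In the other comparisons the correlations between equal numbers were not all above the limit for pairing. Without the 4 libraries that stand apart in the members, a choice made after seeing the data, counts were 60, 51, 35, 4 (E12.5_SP vs E11.5_SP), 27, 23, 13 (iNP vs iSP, median −0.056) and 73, 63 and 30 for the differences between cell types. E12.5_UB replicate 1, which stood apart by its markers, was kept in these fits. It was left out only as a single library, within the ranges below.

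Leaving out 1 library at a time gave 20 to 60 (eUB vs E11.5_UB), 41 to 66 (iSP vs E11.5_SP), 34 to 53 (iNP vs E11.5_NP, median 0.22 to 0.46), 12 to 51 (eUB vs E12.5_UB), 41 to 50 (iSP vs E12.5_SP), 8 to 18 (iNP vs E12.5_NP, median 0.04 to 0.30), 1 to 6, 0 to 4 and 0 to 5 (age, UB, SP and NP), 5 to 27 and 5 to 15 (NP vs SP), 7 to 23 (E11.5_UB vs mesenchyme, median −0.028 to 0.067), 5 to 14 (E12.5_UB vs mesenchyme), 0 to 13 (iNP vs iSP, median −0.056 to 0.183), 48 to 71 (eUB vs iNP and iSP), and 30 to 62, 26 to 58 and 0 to 8 for the differences between cell types. Without eUB replicate 1, Ndufa4l2 and Cox4i2 did not pass the filter against E11.5_UB and have no value. Upper-quartile scaling moved the median of all genes by −0.10 in eUB vs iNP and iSP.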
